A study of Mus musculus with 4 samples.

Results

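The genes described here are 40 genes of autophagy and the lysosome, out of the 29676 gene names on the array, chosen by name. They are the core autophagy genes *Ulk1*, *Ulk2*, *Becn1*, *Uvrag*, *Pik3c3*, *Wipi1*, *Wipi2* and those named *Atg*, together with the LC3 and GABARAP genes, 3 cargo receptors, the transcription factors *Tfeb*, *Tfe3* and *Mitf*, and 7 lysosomal genes. Every non-control spot that the scanner files assign to 1 of these names was used, which gave 58 probes. They were read in astrocyte-enriched cultures (AECs), mixed glial cultures from the cortex of newborn ICR mice, all treated with PLX3397 to deplete microglia through the colony-stimulating factor-1 receptor. The 2 untreated samples were compared with 2 samples kept for 15 h under oxygen–glucose deprivation (OGD), in which cells stay in medium without glucose under hypoxia as a model of ischemia. Each of the 4 RNA samples was labeled with Cy3 and hybridized to its own array, so that the level of a transcript was read as the brightness of its probe. Mixed glial cultures also hold cells of the oligodendrocyte lineage, and in RNA from a whole culture fewer cells of a type and less RNA per cell cannot be told apart. By the methods, each culture well came from an independent culture of different pups, although which wells gave the 4 samples, and whether their litters differed, is not given in the sources used here. The p-values measure the spread between these samples.

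Autophagy encloses cytoplasm, organelles or protein aggregates in a double membrane, the autophagosome, and delivers them to the lysosome, where acid hydrolases degrade them. The ULK1 kinase complex starts the process when nutrients or energy are short, a phosphatidylinositol 3-kinase complex built around Beclin 1 marks the site, and 2 ubiquitin-like conjugation systems attach LC3 and GABARAP proteins to the growing membrane. LC3 on the membrane then holds cargo receptors such as p62, and the transcription factors TFEB, TFE3 and MITF are known to activate lysosomal and autophagy genes. In astrocytes the pathway is studied in ischemia because it recycles material when fuel is short.

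Calls after OGD are given by role, with no test of the difference between roles. Among the 22 genes that build the autophagosome (initiation, phosphatidylinositol 3-kinase complex, membrane supply and conjugation), 11 were called lower and 2 higher, with a median log2 fold change of −0.38 (8 lower and 1 higher without untreated replicate 1, and 7 and 1 without untreated replicate 2). All 5 LC3 and GABARAP genes were called higher, with a median of 1.08, as were 2 of the 3 cargo receptors and all 7 lysosomal genes, the latter with a median of 0.85. Each of these values is relative to the 75th percentile of its array, which is the normalization of the study, and called means an adjusted p under 0.05 in limma, a linear model that pools information on the variance over probes. In total, 17 of the 40 genes were called higher and 13 lower, against 37.1% of all 21064 genes tested called higher and 27.8% called lower. A difference of more than 2-fold was reached by 6 genes that were higher and 4 that were lower, where 12.7% and 15.0% of all genes passed that limit. The untreated and the OGD arrays did not overlap for 37 of the 40 genes (84.8% of all genes). The median log2 fold change of the 40 genes was 0.15, close to the 0.16 of all genes. The plot of fold changes by role shows the 40 values. Without untreated replicate 2 the counts were 11 higher and 7 lower, and without untreated replicate 1 they were 13 higher and 8 lower.

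**Figure D1:**
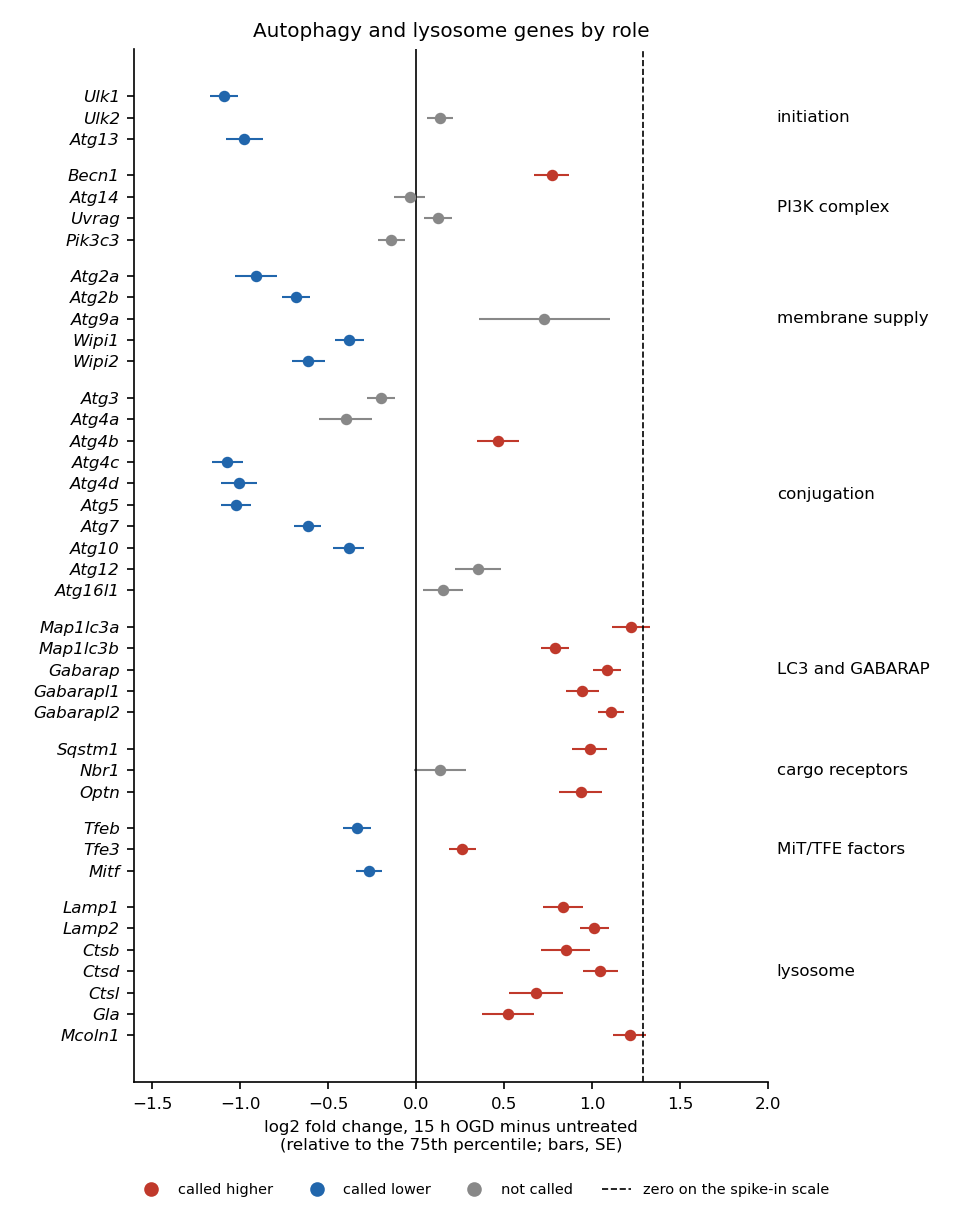
Log2 fold change of each of the 40 genes after 15 h of OGD against untreated AECs, relative to the 75th percentile of each array, as points with the SE from limma (2 arrays per group), grouped by role and colored by call. The LC3 and GABARAP genes and the lysosomal genes all lie to the right of 0 and most genes of autophagosome formation to the left, while all 40 lie to the left of the dashed line, where the difference would be 0 had the arrays been scaled on spiked-in control RNA.

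The calls of higher depended on the scale. On the processed signal itself, before any normalization between arrays, the mean log2 signal of all 40 genes was lower after OGD, by differences between −2.46 and −0.15, and this held for 93.6% of all genes tested. The 75th percentile was 2135 and 2164 for the untreated samples and 887 and 776 for the OGD samples, a log2 difference of −1.37, whereas spiked-in control RNA differed by −0.085 on average, with its 9 probes between −0.75 and 0.28. The difference was 0.13 to 0.28 for spiked-in probes at a mean log2 signal of 6.99 to 12.7. For those at 14.4 to 17.1 it was −0.75 to −0.038, and for the dimmest, at 3.90, it was −0.15. A single average was used for all genes, bright ones included. Scaled on the spiked-in probes, 0 of the 40 genes were called higher and 32 lower, against 3.84% and 83.3% of all genes. Higher relative to the 75th percentile thus means, for all 40 genes, a signal that was lower after OGD by less than the percentile was. By the methods an equal mass of total RNA was labeled for each array, so neither scale can follow the RNA per cell. Which of them is closer to the levels in that RNA was not tested.

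Signal level also went with the fold change. When all genes tested were ordered by their mean normalized log2 signal over the 4 arrays and divided into 10 bands of equal size, the median log2 fold change was 0.71 in the brightest band, in which 79.4% of genes were called higher and 1.85% lower. It was 0.35 in the next band and between −0.17 and 0.15 in the other 8. In bands 4 to 7, counted from the dimmest, 34.2% to 41.6% of all genes were called lower. Most genes of autophagosome formation lay in these bands, so that calls of lower among them read against that share. The brightest band held 10 of the 40 genes, namely *Map1lc3b*, *Gabarap*, *Gabarapl1*, *Gabarapl2*, *Lamp1*, *Lamp2*, *Ctsb*, *Ctsd*, *Ctsl* and *Gla*, so that calls of higher among them read against that share. In the 2 brightest bands together lay 11 of the 12 LC3, GABARAP and lysosomal genes, and 1 of the 22 genes of autophagosome formation. Minus the median of their band, the lysosomal genes had a median of 0.14, the LC3 and GABARAP genes 0.37, the cargo receptors 0.64 and the genes of autophagosome formation −0.30. With cyclic loess, which removes a trend with signal level, 3 of the 5 LC3 and GABARAP genes and 3 of the 7 lysosomal genes were called higher (27.6% of all genes), and 13 of the 22 genes of autophagosome formation lower (32.7%). Quantile normalization left 2 and 1 called higher (28.3% of all genes) and gave 12 lower (31.1%). The plot of fold change against signal level sets each gene beside its band.

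**Figure D2:**
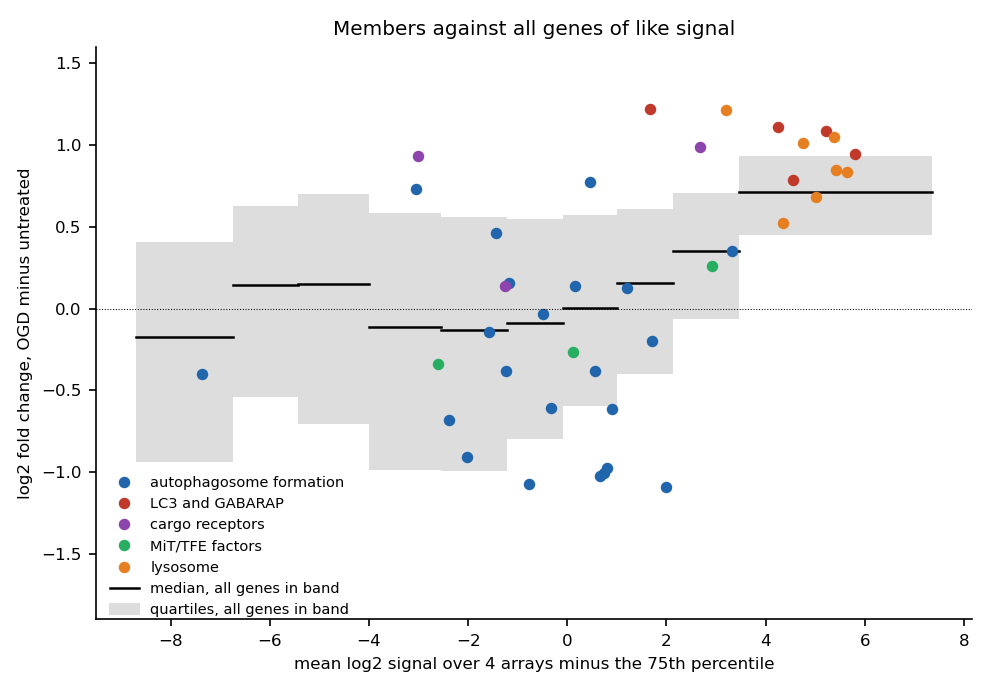
Log2 fold change (OGD minus untreated) of the 40 genes against their mean log2 signal over the 4 arrays, relative to the 75th percentile, with the median (line) and the range between the quartiles (grey) of all 21064 genes tested in each of 10 bands of signal. The lysosomal and LC3 genes at the right lie around a band median of 0.71, and *Ulk1*, *Atg13*, *Atg4c*, *Atg4d*, *Atg5* and *Atg7* lie below the grey area of theirs.

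The promoters of the lysosomal genes are shown because the CLEAR element, an E-box with set flanks that TFEB, TFE3 and MITF bind, was described in genes of this kind. Of the 40 genes, 34 had an entry in the table of RefSeq promoters (GRCm38.p6), which runs from 250 bases before to 50 after each start site. The 7 letters TCACGTG of the element were searched on both strands, as were the E-box CACGTG that they contain and the core ACGTG of the hypoxia response element, which lies within both, so that a match to the longest counts in all 3. TCACGTG was found for 7 of the 34 genes (20.6%), against 4.29% of 27025 gene symbols with a promoter, and CACGTG for 9 (26.5%, against 8.09%). By role it was present in 4 of 6 lysosomal genes, 2 of 8 conjugation genes and 1 of 2 genes of the phosphatidylinositol 3-kinase complex, and in 0 of the 18 genes of the other roles. ACGTG was found for 18 genes (52.9%, against 21.8%), and TGATGCA, letters of a C/EBP–ATF element, only for *Optn* (2.94%, against 3.63%). The windows printed here span the matches upstream of the start site in 6 of the 7 genes, each from 20 bases before the first match to 20 after the last where the table and the start site allow. They are written 5′ to 3′ along the gene's strand, and capitals mark TCACGTG and its reverse complement.
*Lamp1*, chr8:13159079-13159160, plus strand: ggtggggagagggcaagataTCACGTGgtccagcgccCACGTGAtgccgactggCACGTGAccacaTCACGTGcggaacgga
*Mcoln1*, chr8:3500427-3500500, plus strand: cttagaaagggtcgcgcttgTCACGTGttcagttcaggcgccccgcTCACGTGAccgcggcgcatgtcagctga
*Ctsd*, chr7:142387899-142388077, minus strand: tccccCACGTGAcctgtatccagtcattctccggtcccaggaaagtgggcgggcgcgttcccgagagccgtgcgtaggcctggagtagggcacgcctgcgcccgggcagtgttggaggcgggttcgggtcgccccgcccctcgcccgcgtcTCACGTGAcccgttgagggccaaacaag
*Gla*, chrX:134601173-134601253, minus strand: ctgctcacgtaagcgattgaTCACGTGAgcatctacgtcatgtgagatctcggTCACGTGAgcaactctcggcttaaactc
*Atg3*, chr16:45158714-45158784, plus strand: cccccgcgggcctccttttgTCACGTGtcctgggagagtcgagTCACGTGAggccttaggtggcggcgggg
*Atg7*, chr6:114670943-114670989, plus strand: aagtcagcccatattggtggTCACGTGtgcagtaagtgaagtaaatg
*Lamp1* held 4 separate matches, which began between positions −62 and −16 from its start site, and *Mcoln1*, *Ctsd*, *Gla* and *Atg3* held 2 each. The match of *Atg14*, not shown, crossed its start site. The 7 genes with a match did not share a direction, since *Lamp1*, *Mcoln1*, *Ctsd* and *Gla* were called higher, *Atg7* was called lower, and *Atg3* and *Atg14* were not called. A match gives letters and not a site, and binding was not measured.

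The initiation kinase was lower. *Ulk1*, which encodes the kinase that starts autophagy, was read by a probe at chr5:111213514-111213573 (mm9, minus strand) at a processed signal of 12143 and 12864 in untreated AECs and of 2368 and 2171 in OGD-treated AECs. Both OGD values lay far below both untreated values, and the normalized log2 levels did not overlap either, at 2.51 and 2.57 against 1.42 and 1.48. The log2 fold change was −1.09 ± 0.081 (SE, n = 2 per group), 2.13-fold lower, with a limma adjusted p of 0.00165. *Atg13*, the scaffold that binds the kinase, had a log2 fold change of −0.97 ± 0.10 (limma adjusted p = 0.00334), with signals of 5372 and 5076 against 1166 and 903. For *Ulk2*, a second kinase of the same kind, the brightest probe was not called at 0.14 ± 0.074 (limma adjusted p = 0.181). A probe further along the transcript was called lower at −0.78.

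In the phosphatidylinositol 3-kinase complex only *Becn1* was called. *Becn1* encodes Beclin 1, the scaffold of the complex, and read 2142 and 2391 in untreated AECs and 1530 and 1456 after OGD. These signals were lower after OGD, while the normalized log2 levels were higher on both OGD arrays (0.0047 and 0.14 against 0.79 and 0.91), with a log2 fold change of 0.77 ± 0.099 and a limma adjusted p of 0.00514. The catalytic subunit gene *Pik3c3* (−0.14), and *Atg14* (−0.035) and *Uvrag* (0.12), whose products join Beclin 1 in alternative complexes, did not pass the test, and the arrays of the 2 groups overlapped for *Atg14*.

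Among the genes of membrane supply, 4 of 5 were called lower (27.8% of all genes). *Atg2a* and *Atg2b*, which encode lipid transfer proteins, had log2 fold changes of −0.91 ± 0.12 and −0.68 ± 0.080 (limma adjusted p = 0.00541 and 0.00407). *Atg2a* read 701 and 757 in untreated AECs against 147 and 153, and *Atg2b* 504 and 535 against 136 and 115. The lipid-binding proteins of the WIPI family are encoded by *Wipi1* (−0.38) and *Wipi2* (−0.61), both called lower at their brightest probe. With either untreated array left out, and with the mean over a gene's probes, 2 of the 5 genes were called lower, since *Wipi1* and *Wipi2* lost their calls. *Atg9a*, the membrane-spanning scramblase, was not called at 0.73 ± 0.37 (limma adjusted p = 0.16), and its OGD arrays lay far apart, with signals of 97.4 and 171 against 210 and 193 untreated.

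The conjugation genes held the other 3 of the 4 genes that were more than 2-fold lower. *Atg5*, part of the conjugate that directs LC3 lipidation, read 4922 and 4803 in untreated and 1027 and 831 in OGD-treated AECs at chr10:44083997-44084056 (mm9, plus strand). Its log2 fold change was −1.02 ± 0.087, 2.03-fold lower, with a limma adjusted p of 0.00208, and the groups did not overlap. The 4 proteases of the ATG4 family, which trim LC3 and GABARAP proteins before conjugation and release them afterwards, did not move together. *Atg4c* (chr4:98926364-98926423, plus strand) read 1784 and 1867 against 342 and 329, a log2 fold change of −1.07 ± 0.090 (2.10-fold lower, limma adjusted p = 0.00207). *Atg4d* (chr9:21078130-21078189, plus strand) read 5099 and 5116 against 1121 and 860, with −1.01 ± 0.10 (2.01-fold lower, limma adjusted p = 0.00291). In both genes each OGD value was below each untreated value. *Atg4b* was called higher at 0.47 ± 0.12 (limma adjusted p = 0.0304), a call that was lost or turned in 6 of 18 alternatives, among them the omission of either untreated array. *Atg4a*, a dim probe at 13.9 and 15.9 against 4.16 and 4.57, was not well above background on either OGD array and was not called. It was called lower with spike-in scaling, the percentile of bright probes, cyclic loess and the replicate block. With normexp background correction it was called higher instead (1.08, limma adjusted p = 5.2e-05).

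Of the other conjugation genes, *Atg7*, the enzyme that activates both systems, and *Atg10*, which conjugates ATG12 to ATG5, were called lower at −0.62 ± 0.077 and −0.38 ± 0.087, calls that were lost in 2 and 4 of 18 alternatives. *Atg3* (−0.20), the enzyme that transfers LC3 to lipid, *Atg12* (0.35), whose product is joined to ATG5, and *Atg16l1* (0.15), which brings the conjugate to the membrane, did not pass the test at their brightest probes. Another probe of *Atg12*, dimmer and upstream, was called higher at 0.88 ± 0.092 (limma adjusted p = 0.00316), and *Atg3* was called lower in 6 of 18 alternatives. Across the 10 conjugation genes 5 were called lower and 1 higher (27.8% and 37.1% of all genes), against 4 and 0 with the methods' t-test. Their median was −0.39, and it was −0.46 without untreated replicate 1 and −0.32 without untreated replicate 2.

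All 5 LC3 and GABARAP genes, whose products are the tags on the autophagosome membrane, were higher relative to the 75th percentile. *Map1lc3a* (chr2:155103435-155103494, plus strand) read 4192 and 4711 in untreated AECs and 4055 and 3958 with OGD. These signals were close, and after normalization both OGD arrays were higher, at 2.19 and 2.35 against 0.97 and 1.12. The log2 fold change was 1.22 ± 0.11, 2.33-fold higher, with a limma adjusted p of 0.00222, and it exceeded the median of its band by 1.07. *Gabarapl2* (chr8:114476386-114476445, plus strand) read 27804 and 27991 against 24797 and 21750, and normalized 3.70 and 3.69 against 4.81 and 4.81, 2.16-fold higher (limma adjusted p = 0.00142). *Gabarap* (chr11:69808343-69808402, plus strand) read 56039 and 53767 against 48040 and 42028, and was 2.12-fold higher (limma adjusted p = 0.00161). Neither gene overlapped between groups on the normalized scale, and they exceeded the median of the brightest band by 0.40 and 0.37. *Gabarapl1* (0.95 ± 0.094) and *Map1lc3b* (0.79 ± 0.080), the gene of the LC3 form most often used to follow autophagy, stood 0.24 and 0.079 above that median, and neither was called with cyclic loess or quantile normalization. *Gabarap* was not called with quantile normalization (0.25, limma adjusted p = 0.0578).

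Of the cargo receptors, *Sqstm1* and *Optn* were higher and *Nbr1* was not called. *Sqstm1* encodes p62, which carries ubiquitinated proteins to LC3 and is itself degraded by autophagy, and it read 9669 and 9922 against 7520 and 7478. Its normalized levels were 2.18 and 2.20 against 3.08 and 3.27, a log2 fold change of 0.99 ± 0.099 (limma adjusted p = 0.00292), and its second probe gave 0.87. *Optn* encodes optineurin, a receptor for mitochondria and bacteria, and it read 211 and 178 against 154 and 133, with a log2 fold change of 0.93 ± 0.12 (limma adjusted p = 0.00513) that exceeded the median of its dim band by 1.05. *Nbr1*, a receptor related to p62, had 0.14 ± 0.15 with overlapping groups.

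The transcription factor genes differed by less. *Tfeb* was called lower at −0.34 ± 0.080 and *Mitf* at −0.27 ± 0.075, and *Tfe3* was called higher at 0.26 ± 0.077 (limma adjusted p = 0.0255, 0.0398 and 0.0445). Of 18 alternatives, the call of *Tfe3* was lost or turned in 11, that of *Mitf* in 8 and that of *Tfeb* in 6. A second *Tfeb* probe was not above background on any array.

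The 7 lysosomal genes were called higher relative to the 75th percentile, although 5 of them were without untreated replicate 1, 3 without untreated replicate 2 and 4 with the methods' test. *Mcoln1* encodes the calcium channel TRPML1 of the lysosome membrane, and its brightest probe (chr8:3515110-3515169, plus strand) read 12633 and 13280 against 11782 and 11422. Normalized, both OGD arrays were higher, at 3.73 and 3.88 against 2.56 and 2.62. The difference was 2.32-fold with a limma adjusted p of 0.00174, 0.86 above the median of its band. *Ctsd*, the aspartic protease cathepsin D, read 66054 and 59121 against 53455 and 46491 (chr7:149561962-149562021, minus strand) and was 2.07-fold higher (log2 fold change 1.05 ± 0.098, limma adjusted p = 0.00253). *Lamp2*, a membrane glycoprotein of the lysosome that also serves chaperone-mediated autophagy, read 39536 and 42553 against 34556 and 29570 (chrX:35772774-35772833, minus strand) and was 2.02-fold higher (limma adjusted p = 0.00187). Neither gene overlapped between groups after normalization, and both lay 0.30 to 0.34 above the median of the brightest band. With quantile normalization *Ctsd* was at 0.21 (limma adjusted p = 0.087) and *Lamp2* at 0.26 (limma adjusted p = 0.11), and neither was called. *Lamp1* (0.84 ± 0.12), a related glycoprotein, and the cysteine proteases *Ctsb* (0.85 ± 0.14) and *Ctsl* (0.68 ± 0.15) stood at 0.13, 0.14 and −0.029 from that median. *Gla*, the alpha-galactosidase, was lowest at 0.52 ± 0.15, at −0.19 from it, and its call was lost or turned in 10 of the 18 alternatives, as were those of *Ctsl* in 6, *Ctsb* in 5 and *Lamp1* in 4. On the spike-in scale all 7 were at negative values, from −0.77 for *Gla* to −0.074 for *Mcoln1*. The plot of signals by array shows the genes past 2-fold on both scales.

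**Figure D3:**
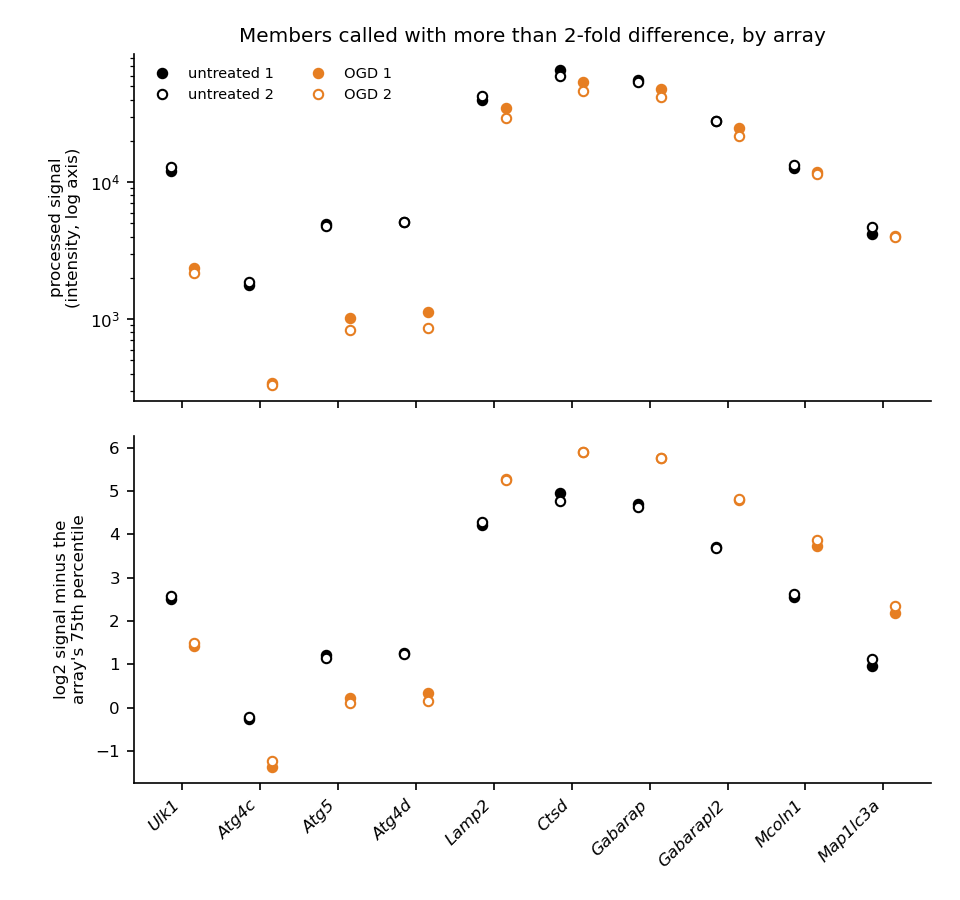
Processed signal (upper panel, log axis) and log2 signal minus the 75th percentile of the array (lower panel) of the 10 genes that were called with more than a 2-fold difference, with 1 point per array (2 untreated, 2 OGD). In the lower panel the OGD arrays lie below the untreated arrays for the first 4 genes and above them for the other 6, whereas in the upper panel the OGD points of all 10 genes lie below the untreated points.

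Lysosomal genes are also expressed by microglia, so markers of that cell type are given beside them. Of 10 microglial markers 9 were tested, of which 3 were called higher (*Cd68*, *Csf1r* and *Aif1*; 37.1% of all genes), 2 lower (*Tmem119* and *Trem2*) and 4 not called, with a median log2 fold change of 0.18. Their summed level relative to the 75th percentile was 2.07 to 2.35 in untreated AECs and 6.54 to 6.76 after OGD. Without *Cd68* the sum was 1.51 to 1.81 and 1.68 to 1.92, and in that sum *Itgam*, the brightest of the other tested markers (0.023 ± 0.16, not called), outweighs the dimmer ones. Of these, *Csf1r* and *Aif1* had log2 fold changes of 1.14 ± 0.098 and 1.03 ± 0.075, and *Tmem119* and *Trem2* of −0.88 ± 0.13 and −0.93 ± 0.21. *Cd68*, itself a lysosomal membrane protein, was 8.81-fold higher, from 1157 and 1213 to 4301 and 3778 in processed signal. *Cx3cr1* and *P2ry12*, markers of resident microglia, read between 2.79 and 21.5 over the 4 arrays and were not called. The astrocyte markers, all 10 of them tested, summed to 149 to 168 in untreated and 228 to 233 in OGD-treated AECs, and oligodendrocyte markers to 29.1 to 29.3 and 25.5 to 26.3. Within these sums the markers differed. The astrocyte markers ranged from −1.52 to 1.13 (6 called higher, 1 lower). Of these 10, 7 lay in the brightest band, and their median minus that of their bands was −0.043. The 8 oligodendrocyte markers ranged from −2.50 to 1.19 (3 called higher, 2 lower). Of all genes, 37.1% were called higher and 27.8% lower. The part of each cell type in the lysosomal difference was not tested.

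Where a gene had several probes, the probe decided part of the result. Of 15 genes with at least 2 tested probes, 10 had the same direction on all of them and 5 did not, namely *Atg7*, *Gabarap*, *Ulk2*, *Wipi1* and *Wipi2*. *Wipi2* was called in both directions, at 0.72 on the probe at chr5:143143197-143143256 and at −0.61 on the brighter probe 1631 bases further along the same transcript (mm9, plus strand). The upstream probe read 639 and 655 against 421 and 404, and the downstream probe 2111 and 2128 against 604 and 475, and neither overlapped between groups after normalization. *Ulk2* was at 0.14 upstream and called lower at −0.78 downstream, and *Atg7* at 0.17 and −0.62. *Gabarap* went the other way, with −0.14 on a dim first probe, listed under an Ensembl rather than a RefSeq identifier, and 1.25 and 1.08 on the others. *Mcoln1* likewise had 0.19 on a dim first probe against 1.21.

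Ordered along the gene, the first probe was the higher of the first and the last in 12 of the 15 genes, with a median difference of 0.21. Over the 5557 genes with several tested probes on 1 strand this was so in 73.2%, with a median of 0.36, and 33.7% had probes of unlike sign, so that the share among these genes was near that of the array. Of the 40 genes, 24 had a single probe, so that their differences rest on 1 place in the transcript. Among them were *Ulk1*, *Atg13*, *Atg4d*, *Atg5*, *Atg2a* and *Atg2b*, called lower. Called higher were *Becn1*, *Map1lc3a*, *Map1lc3b*, *Gabarapl1*, *Gabarapl2*, *Optn*, *Lamp1*, *Ctsb*, *Ctsl* and *Gla*, among others with 1 probe. The plot of probes by gene gives each value.

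**Figure D4:**
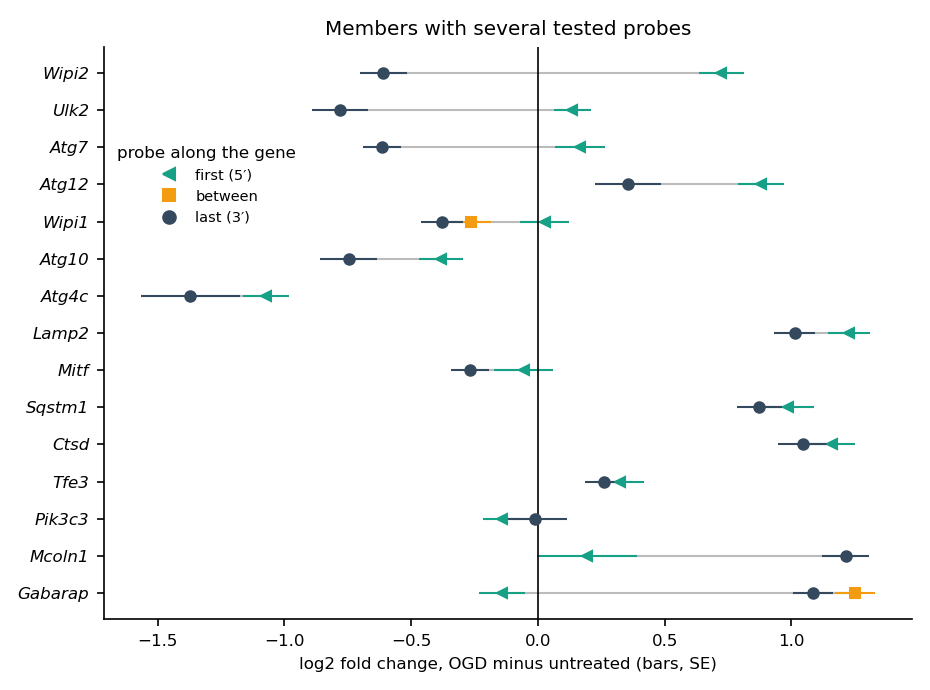
Log2 fold change (OGD minus untreated, with SE) of each tested probe of the 15 genes with several, marked by its order along the gene from 5′ to 3′. *Wipi2*, *Ulk2* and *Atg7* have a positive first and a negative last probe, and in *Mcoln1* and *Gabarap* the first probe is the lower.

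A pair of wider lists puts the 40 genes beside the rest of the pathway. Of 35 other autophagy genes, 19 were called higher and 10 lower (54.3% and 28.6%, against 37.1% and 27.8% of all genes), with a median log2 fold change of 0.39. The highest were *Bnip3* (3.01) and *Bnip3l* (1.72), receptors for mitochondria that are known targets of hypoxia-inducible factor 1, and *Tmem41b* (1.62), a lipid scramblase of the endoplasmic reticulum. *Bnip3* rose in processed signal too, from 16641 and 17018 to 52151 and 52345. The lowest were *Plekhm1* (−3.46), an adaptor for fusion of autophagosomes with lysosomes, *Rb1cc1* (−1.65), whose product FIP200 belongs to the ULK1 complex, and *Wdfy3* (−1.64), a scaffold for aggregates. *Plekhm1* read 2290 and 2369 against 96.7 and 69.6. Without untreated replicate 2, 12 of the 35 were called higher.

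Of 74 other lysosomal genes tested, 55 were called higher and 5 lower (74.3% and 6.76%, against 37.1% and 27.8% of all genes), with a median of 0.62, and 40 of the 74 lay in the 2 brightest bands, where 51.0% and 79.4% of all genes were called higher. The 16 genes in it for subunits and accessory proteins of the V-ATPase, the proton pump that acidifies the lysosome, were called higher, with a median of 0.84, and 14 of them lay in those bands. Of the 16, 10 were called higher and 0 lower with cyclic loess, 8 higher and 2 lower with quantile normalization, 1 higher and 10 lower on the spike-in scale, and 10 higher with either untreated array left out. The highest of the list were *Atp6v1b2* (1.92), a V-ATPase subunit, *Neu1* (1.87), a sialidase, and *Ctss* (1.42), a protease best known from microglia and other myeloid cells. The lowest were *Gnptab* (−1.04), which makes the mannose 6-phosphate tag that sorts hydrolases to the lysosome, *Ctns* (−0.83), the cystine exporter, and *Sort1* (−0.75), a sorting receptor. For *Sort1* the mean over its probes was 0.54. The list was called higher in 33 genes with cyclic loess (27.6% of all genes), 31 with quantile normalization (28.3%) and 2 on the spike-in scale (3.84%), and in 29 with either untreated array left out. TCACGTG was found in 16 of the 55 promoters of this list (29.1%) and in 5 of 28 of the other autophagy genes (17.9%). The plot of the 3 lists shows their spread.

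**Figure D5:**
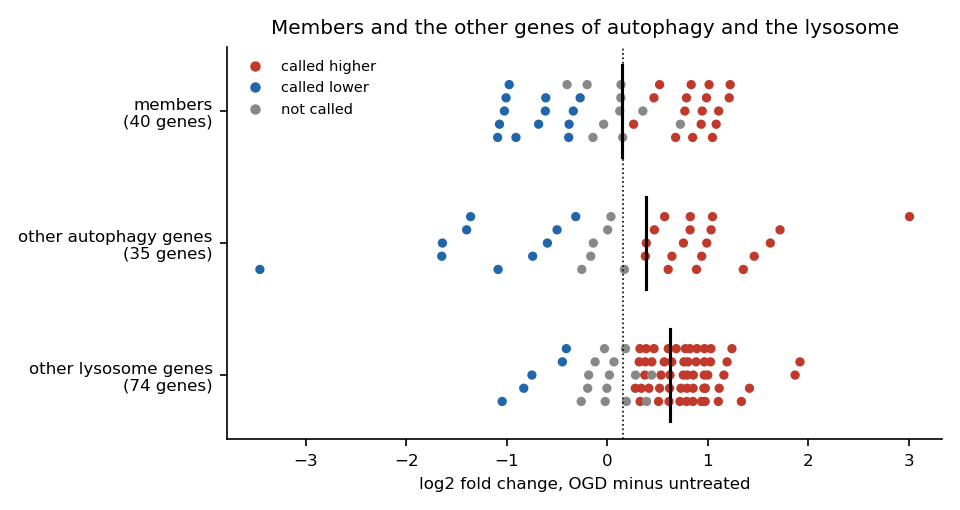
Log2 fold change (OGD minus untreated) of the 40 genes, 35 other autophagy genes and 74 other lysosomal genes, 1 point per gene colored by call, with the median of each list as a bar and the median of all genes tested (0.16) as a dotted line. Points are spread vertically only to separate them, and the other lysosomal genes lie mostly to the right of the dotted line.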

How the data were processed

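RNA was measured on 4 single-color arrays of 1 slide, read in 1 scan. The authors deposited the processed signal, an intensity per spot from which Feature Extraction (version 11.5.1.1 per the labels) had subtracted background, with no normalization between arrays, and 64.5% to 73.7% of the 43020 non-control spots per array were marked well above background. Arrays have no read depth, and the number of arrays limits the precision. From the intensity, log2 was taken, outlier spots were left out (119 to 132 per array) and spots of a probe were averaged. The 75th percentile of each array was then subtracted, the normalization that the study's methods state. Probes were tested (28258) if both arrays of either group had them well above background, and were fitted with lmFit and eBayes in limma 3.58.1 (R 4.3.3), with Benjamini–Hochberg adjustment over all of them. A gene was read at its tested probe with the highest mean. Of the 58 probes of the 40 genes 57 were tested, and 39 of the genes were above background on all 4 arrays. Probe positions are on mm9 per the file headers, and whether they lie in coding sequence was not analysed here. The series table holds the same intensity (largest difference 0).

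The 40 genes and all lists were chosen with earlier results of these data known. All 40 are named, those past 2-fold or with probes that differ in most detail, and of the wider lists the 3 highest and 3 lowest called genes. Further genes (*Cd68* and the other microglial markers named, called or not) are from the marker lists and were named after their values were seen. Of 75 other lysosomal genes, 74 matched a name on the array. As alternatives served the methods' t-test, a limma fit with trend, the replicate number as a block, normexp (offset 50), quantile normalization, scaling on the median, bright probes or 9 spiked-in probes, other filters, outliers kept, the series table, the mean over probes, and each array left out. Cyclic loess was chosen after the data had been seen. With 2 arrays per group an exact permutation test cannot go below 0.333 and was not used. Python 3.11.15 was used for tables (pandas 2.3.3, numpy 2.4.6) and for figures (matplotlib 3.10.9).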

Additional observations from a re-analysis of the deposited data

How the results depend on the processing

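In every alternative except scaling on the spiked-in probes, 6 of the 17 genes called higher (*Becn1*, *Gabarapl2*, *Map1lc3a*, *Mcoln1*, *Optn*, *Sqstm1*) and 7 of the 13 called lower (*Ulk1*, *Atg13*, *Atg2a*, *Atg2b*, *Atg4c*, *Atg4d*, *Atg5*) were called in the same direction. Those 7 were called lower on the spike-in scale too. The cause of the other differences was not tested.

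Of the 40 genes, 7 were called higher with quantile normalization, 10 with cyclic loess and 0 with spike-in scaling, where 32 were called lower. Past 2-fold, 3 were higher with normexp, 2 with quantile normalization or the percentile of bright probes, 1 with cyclic loess and 0 with spike-in scaling, and 2 were lower with normexp and 22 with spike-in scaling. Leaving out each array in turn gave 11 to 17 genes higher and 7 to 13 lower, and 5 to 8 and 2 to 5 past 2-fold. With 1 array left in a group, that array was assumed to vary like the other group.

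For the other autophagy genes, spike-in scaling gave 3 higher and 28 lower, and leaving out an array 12 to 18 higher and 7 to 11 lower. For the other lysosomal genes, quantile normalization gave 31 higher and 10 lower, cyclic loess 33 and 8, spike-in scaling 2 and 59, the mean over probes 3 lower, and leaving out an array 29 to 55 higher and 2 to 6 lower.

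The median log2 fold change of the 40 genes was 0.22 with normexp, −0.063 with quantile normalization, −0.0021 with bright probes, −1.14 with spike-in scaling, −0.046 with cyclic loess, and 0.15 to 0.19 with an array left out. Its difference from the median of all genes (−0.015) was −0.29 with normexp, −0.27 without a filter and −0.080 with the filter on all arrays, and ranged from −0.049 to 0.066 with an array left out.

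On the spike-in scale the following turned to negative values: *Ulk2* (−1.15), *Becn1* (−0.52), *Uvrag* (−1.16), *Atg9a* (−0.56), *Atg4b* (−0.82), *Atg12* (−0.93), *Atg16l1* (−1.13), *Map1lc3a* (−0.065), *Map1lc3b* (−0.50), *Gabarap* (−0.20), *Gabarapl1* (−0.34), *Gabarapl2* (−0.18), *Sqstm1* (−0.30), *Nbr1* (−1.15), *Optn* (−0.35), *Tfe3* (−1.03), *Lamp1* (−0.45), *Lamp2* (−0.27), *Ctsb* (−0.44), *Ctsd* (−0.24), *Ctsl* (−0.61), *Gla* (−0.77) and *Mcoln1* (−0.074). Of genes called as reported or under the alternative, quantile normalization turned *Tfe3* (−0.12), *Lamp1* (−0.046), *Ctsl* (−0.12) and *Gla* (−0.13), cyclic loess *Tfe3* (−0.13) and *Gla* (−0.051), normexp *Atg4a* (1.08), and the mean over probes *Ulk2* (−0.32), *Wipi2* (0.056) and *Sort1* (0.54).

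With the methods' t-test and adjustment, 14 genes were called higher and 12 lower. Deviations of arrays with the same replicate number showed little correlation over probes (−0.057), which cannot tell whether these samples shared a culture or litter. With the number as a replicate block 15 genes were called higher and 12 lower, 18 and 8 of the other autophagy genes, and 50 and 5 of the other lysosomal genes.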
